A study of Mus musculus with 4 samples.

Results

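The Nanog, Dppa3, Gdf3 and Slc2a3 neighbourhood was examined as a stretch of mouse chromosome 6 that runs from 122400001 to 122896000 (mm10/GRCm38). All pairs of 8 kb bins with both bins inside it were taken, whatever their contact values. The stretch holds 62 bins and 1953 possible pairs of bins. The deposited contact lists held 1812 of these pairs in ESCs, out of 23095428 pairs listed across the genome, and 1686 in MNs, out of 21005697. Its 4 named genes are Gdf3 (chr6:122605403-122610087, minus strand), Dppa3 (chr6:122626424-122630271, plus strand), Nanog (chr6:122707565-122714633, plus strand) and Slc2a3 (chr6:122727809-122742745, minus strand). Another 7 protein-coding genes start in the stretch, which makes 11 in all.

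Contacts were measured by Micro-C, in which cross-linked chromatin is cut by micrococcal nuclease between nucleosomes and ends that lie close together are joined and sequenced. The cells were E14 mouse embryonic stem cells (ESCs), kept in LIF with MEK and GSK3 inhibitors (2i), and motor neurons (MNs) made from them through embryoid bodies patterned with retinoic acid and a smoothened agonist. Each state was profiled in wild-type (WT) cells and in PATZ1 KO cells. The KO was made in the same E14 line by CRISPR/Cas9, and such lines were grown from single clones, so that clone and genotype cannot be told apart. PATZ1 is a zinc finger protein that binds G-rich DNA. There was 1 library in each of the 4 groups, so no difference below has a replicate check and no p-value was computed. The intervals are exact 95% intervals that cover counting error only. The lists number their libraries 1 and 2, and the first was taken as WT and the second as the knockout throughout, from the order in which the names of the lists give the genotypes. If that order were the other way round, every difference between genotypes would change sign. PATZ1 KO is written KO below. Where 4 values follow each other, they are those of WT ESCs, KO ESCs, WT MNs and KO MNs. Each library enters one comparison of genotypes and one of cell states, so these comparisons share libraries.

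Nanog is a homeodomain factor that holds ESCs in the pluripotent state and is silenced as they differentiate. Dppa3, also called Stella, regulates DNA methylation in the oocyte and early embryo and is expressed in naive ESCs and germ cells. Gdf3 is a ligand of the TGF-beta superfamily that is expressed in pluripotent cells. Slc2a3 encodes the glucose transporter GLUT3, which is used by early embryonic cells and is also the main glucose transporter of neurons. In ESCs, a proximal enhancer is known about 5 kb upstream of the Nanog start, and distal enhancers about 45 kb upstream and 60 kb downstream of it. Which genes each of them drives was not examined here. Neighbouring genes and enhancers tend to meet inside domains whose edges are often bound by CTCF and cohesin, and CTCF motifs at the feet of a loop mostly point towards each other.

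The Nanog promoter is shown because it carries the DNA element through which Oct4 and Sox2 are known to act on the gene. RefSeq promoter sequences (GRCm38.p6) were given for 1 of the 4 genes, Nanog. Capitals mark the match to the composite Oct-Sox element, which lies on the minus strand at chr6:122707414-122707425 and which 0.0365% of 32851 promoters held on either strand.
Nanog promoter, plus strand, chr6:122707315-122707614: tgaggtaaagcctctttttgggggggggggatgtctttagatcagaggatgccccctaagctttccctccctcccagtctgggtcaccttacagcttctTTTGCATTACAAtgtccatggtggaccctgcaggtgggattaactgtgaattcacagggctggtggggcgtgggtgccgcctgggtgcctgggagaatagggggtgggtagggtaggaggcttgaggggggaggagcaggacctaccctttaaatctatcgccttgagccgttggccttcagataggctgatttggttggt
The same promoter held the letters GGGAGGG, a G-rich string of the kind PATZ1 binds, at 2 overlapping places on the minus strand (chr6:122707379-122707385 and chr6:122707383-122707389). That string was searched on both strands and occurred in 22% of all promoters.

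The bin 45 kb upstream of Nanog (chr6:122656001-122664000) is shown next because its contacts set the ESC maps apart from the MN maps. It contained a pair of matches to the core CTCF motif, searched on both strands, and the next 2 bins contained 1 each. A core match was found in 7 of the 62 bins of the stretch (11.3%), against 6.88% of 319939 bins of the genome. The bin that holds the Slc2a3 promoter also contained one. The sequences below are read 5′ to 3′ on the strand of the match, and capitals mark the core motif.
45 kb upstream bin, plus strand, chr6:122660665-122660684: tagtCCAGCAGGTGGCagga
45 kb upstream bin, minus strand, chr6:122661164-122661183: tctcCCAGTAGGGGGCcttc
next bin, plus strand, chr6:122669540-122669559: tccaCCAACAGGGGGCgtta
bin after that, plus strand, chr6:122675535-122675554: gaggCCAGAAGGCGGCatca
Slc2a3 promoter bin, plus strand, chr6:122740132-122740151: acgtCCAGTAGGTGGCagca
The matches in the upstream bins thus included 3 that read towards Nanog and Slc2a3 and 1 that reads towards Dppa3, whereas the match at Slc2a3 reads in the same direction as the former 3. Binding of CTCF was not measured in these libraries.

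Over the listed pairs, which are those seen in both libraries of a state, the contacts summed to 170946673 in WT and 160496081 in KO ESCs, and 110991835 in WT and 118032533 in KO MNs. Contacts fall steeply with distance, so each count was divided by the mean count of all pairs of covered bins on chromosome 6 at the same distance in that library (observed over expected, O/E). The bin that holds the Patz1 start had 562 contacts in WT and 399 in KO ESCs, and 380 and 228 in MNs. Against its neighbours this bin had a log2 ratio of KO over WT of -0.46 (interval -0.65 to -0.27) in ESCs and -0.53 (-0.78 to -0.29) in MNs. Contact counts do not show whether the gene is disrupted, and gene expression was not measured in these libraries, so the identity of the cells was not checked against markers. A lower O/E also cannot tell a contact made in fewer cells from one made less often in each cell.

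The stretch was slightly richer in contacts than expected in ESCs of both genotypes and in WT MNs, but not in KO MNs. It held 46261 contacts in WT and 43339 in KO ESCs, and 27438 in WT and 26787 in KO MNs. These counts gave an O/E of 1.14 (interval 1.13 to 1.15), 1.14 (1.13 to 1.15), 1.10 (1.08 to 1.11) and 0.979 (0.967 to 0.991). Among 4842 windows of the same length across the genome, the values stood at percentiles 87.5, 85.9, 67.4 and 37.2. KO over WT had a log2 ratio of -0.01 (-0.02 to 0.01) in ESCs, whereas in MNs it was -0.16 (-0.19 to -0.14), and the latter stood at percentile 27.1 of the windows. The log2 ratio of MN over ESC was -0.06 (-0.08 to -0.04) in WT and -0.22 (-0.24 to -0.20) in KO cells, at percentiles 41.5 and 3.04. The last of these was therefore among the lower windows, and the other 3 were not. The number of contacts that a bin makes along the whole chromosome moved in the same direction: relative to chromosome 6, its median over the 62 bins was 1.08, 1.06, 1.02 and 0.918 in the same order of libraries. With counts corrected for this coverage the MN ratios changed sign, to 0.10 for KO over WT, and to 0.10 in WT and 0.14 in KO cells for MN over ESC. Each count was divided by the coverage of both its bins, and this coverage includes the contacts within the stretch. Here and below the correction can therefore remove more than a change within the stretch, which by itself can turn the sign. A corrected value of the other sign therefore does not show a change in that direction.

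**Figure D1:**
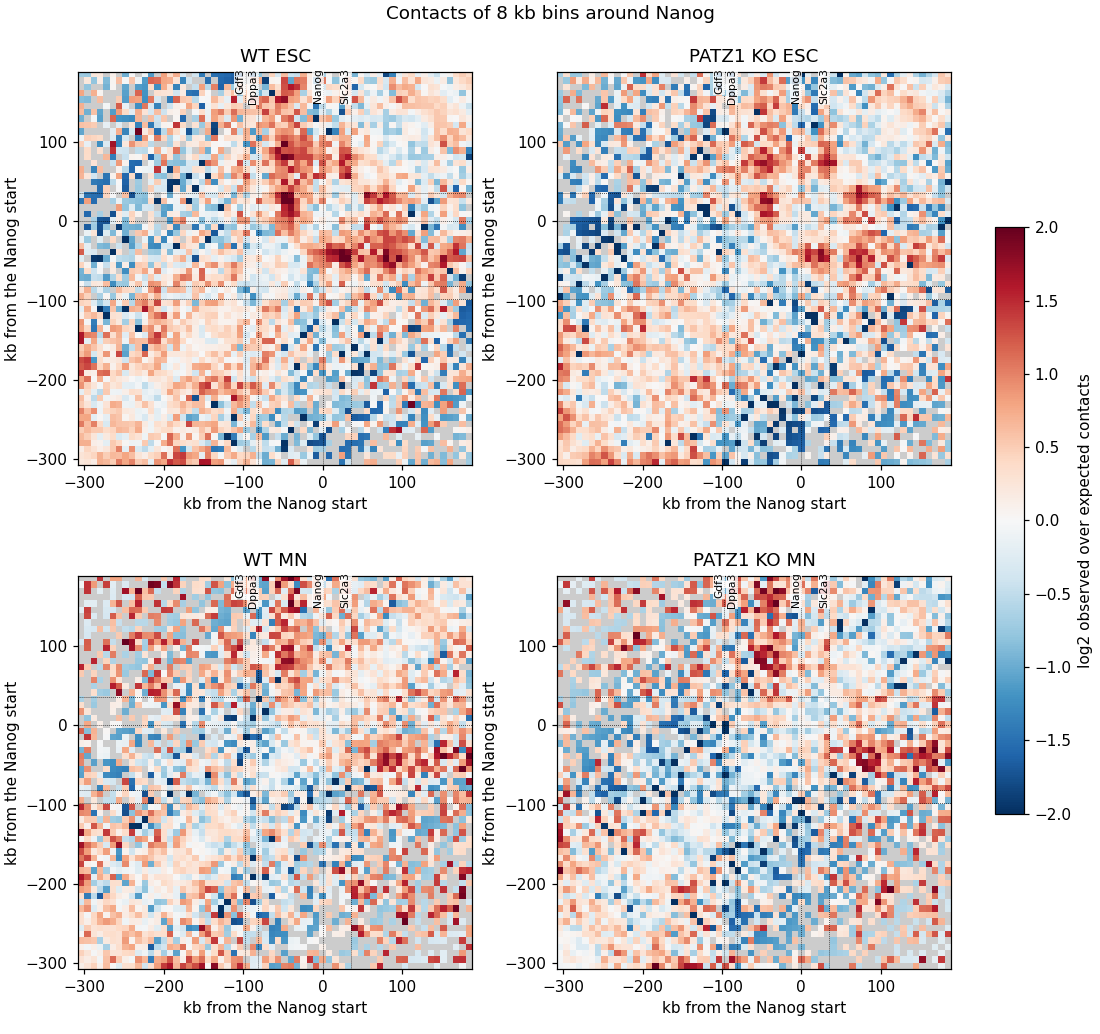
Contact maps of the 62 bins in the 4 libraries. Both axes give the position of a bin in kb from the Nanog start, colour gives log2 O/E (red, more than expected), grey marks pairs that were not listed, and dotted lines mark the 4 gene starts. In ESCs a red row leaves the bin 45 kb upstream of Nanog towards Nanog, Slc2a3 and beyond, with an O/E of 2.29 in WT and 1.86 in KO cells. In MNs it is paler, with 1.45 and 1.34.

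The maps were split at the bin 45 kb upstream of Nanog. Gdf3 and Dppa3 lie on one side of it, with 32 bins, and Nanog and Slc2a3 on the other, with 30 bins that include the upstream bin itself. This split was chosen after the maps had been seen and is used here as a description. Among pairs at least 16 kb apart, the Nanog-Slc2a3 side had 6668 contacts in WT and 5556 in KO ESCs, and 3844 in WT and 3607 in KO MNs, or an O/E of 1.35, 1.22, 1.22 and 1.10. The Gdf3-Dppa3 side had 6831, 5902, 3840 and 3578 contacts, or 1.25, 1.17, 1.11 and 0.994. Pairs with one bin on each side had 4078, 3569, 2299 and 2197 contacts, or 0.978, 0.907, 0.940 and 0.877. In every library the mixed pairs were thus the poorest in contacts and the Nanog-Slc2a3 side the richest. Mixed pairs also hold all the longest distances, and O/E in the stretch was lowest there, at 0.636, 0.666, 0.766 and 0.722 for 400 to 488 kb. Distances were not matched between the classes, so the low value of mixed pairs does not show an edge at this bin.

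Both sides were lower in KO than in WT cells by similar amounts, and so were the mixed pairs, at -0.11 (-0.17 to -0.04) in ESCs and -0.10 (-0.19 to -0.02) in MNs. On the Nanog-Slc2a3 side ESCs had a log2 ratio of -0.15 (-0.20 to -0.10) and MNs one of -0.14 (-0.21 to -0.08), and on the Gdf3-Dppa3 side these were -0.10 (-0.15 to -0.05) and -0.15 (-0.22 to -0.09). Correction for bin coverage removed the difference on the Nanog-Slc2a3 side in ESCs, with a log2 ratio of -0.02, and left -0.07 on the Gdf3-Dppa3 side. In MNs it turned the direction, to 0.11 on the Nanog-Slc2a3 side and 0.08 on the other. Between the states, MN over ESC, the log2 ratio in WT cells was -0.15 (-0.20 to -0.09) for the Nanog-Slc2a3 side and -0.18 (-0.24 to -0.12) for the Gdf3-Dppa3 side. In KO cells these were -0.14 (-0.20 to -0.08) and -0.23 (-0.29 to -0.17). Correction for coverage turned the first pair to 0.07 and -0.01 and the second pair to 0.19 and 0.15. As coverage includes the contacts within the stretch, these corrected values do not decide the direction of the broad sums. Over all pairs of the stretch at least 16 kb apart, the uncorrected KO over WT ratio stood at percentile 10.1 of the 4842 windows in ESCs and 34.8 in MNs. That of MN over ESC stood at percentile 36.5 in WT and 21.2 in KO cells.

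The row of contacts of the bin 45 kb upstream of Nanog was lower in MNs than in ESCs in both genotypes. With the 27 bins of the Nanog-Slc2a3 side that lie at least 24 kb from it, this bin made 490 contacts in WT and 369 in KO ESCs, and 190 in WT and 182 in KO MNs. The O/E was 2.29 (2.09 to 2.51), 1.86 (1.67 to 2.05), 1.45 (1.25 to 1.67) and 1.34 (1.15 to 1.55). The ESC libraries were thus both above the MN libraries, and their intervals did not overlap those of the MN libraries. A row as strong as this over the following 27 partners was made by 0.0393% of 17813 bins of chromosome 6 in WT ESCs and 0.528% in KO ESCs, but by 11.6% and 14.4% of 17766 bins in MNs. Towards Gdf3 and Dppa3 the same bin made 217, 179, 125 and 129 contacts with 30 bins, or an O/E of 0.966, 0.855, 0.908 and 0.909. Its contacts therefore ran to one side in every library. Its coverage relative to chromosome 6 was 1.13, 1.02, 1.06 and 0.966.

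The MN over ESC log2 ratio of that row was -0.67 (-0.92 to -0.42) in WT and -0.47 (-0.73 to -0.21) in KO cells. It kept its direction when counts were scaled by library total (-0.74 and -0.58) or corrected for bin coverage (-0.49 and -0.21), and with the adjusted interaction frequencies of the authors (-0.67 and -0.47). The log2 ratio of KO over WT in ESCs was -0.31 (-0.50 to -0.11), and that in MNs was -0.11 (-0.41 to 0.19). The ESC value was -0.12 after correction for coverage, and the MN value changed sign to 0.17. Of the 17790 bins of chromosome 6, 94.6% had a KO over WT ratio in ESCs that was at least as high. For MN over ESC the shares were similar, with 94.8% of 17720 bins in WT and 91.4% in KO cells.

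The difference between ESCs and MNs was larger in the nearer part of this row. Up to and including the Slc2a3 promoter bin (8 partners, Nanog among them) the upstream bin made 239 contacts in WT and 184 in KO ESCs, and 73 in WT and 60 in KO MNs, with an O/E of 2.17, 1.81, 1.02 and 0.807. Summed over these partners, contacts in MNs were thus close to or below what their distance gave. The MN over ESC log2 ratio was -1.09 (-1.49 to -0.71) in WT and -1.17 (-1.61 to -0.74) in KO cells. Beyond Slc2a3 (19 partners) it made 251 contacts in WT and 185 in KO ESCs and 117 in WT MNs, and the O/E of the 4 libraries was 2.42, 1.90, 1.96 and 1.99. Here the MN over ESC log2 ratio was -0.31 (-0.63 to 0.02) in WT and 0.07 (-0.27 to 0.41) in KO cells. In neither genotype did the intervals of the nearer and farther parts overlap. The place of this division was also chosen after the maps had been seen.

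**Figure D2:**
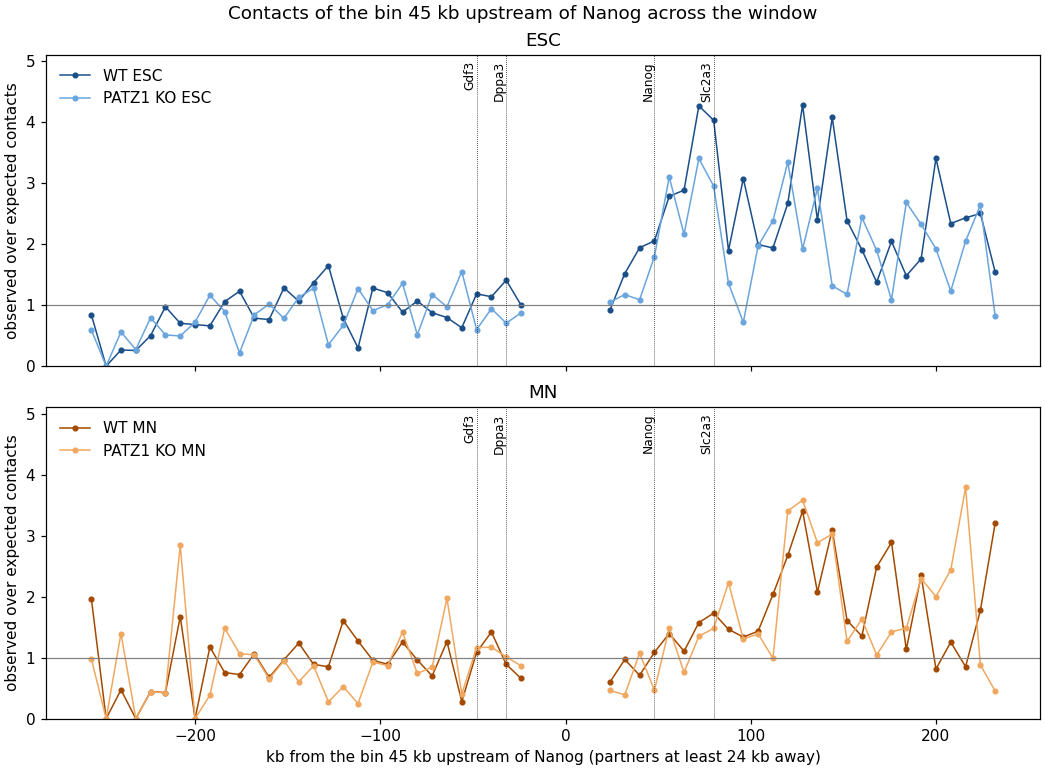
O/E of the bin 45 kb upstream of Nanog with every bin of the stretch at least 24 kb from it, in ESCs (top) and MNs (bottom). The x axis gives the distance from that bin in kb, points are single pairs of bins, and dotted lines mark the promoter bins of the 4 genes. Between Nanog and Slc2a3 the ESC lines rise to about 4 (4.27 in WT and 3.40 in KO cells at 72 kb), whereas the MN lines reach 1.57 and 1.35 there.

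Contacts of the Nanog promoter with the 2 distal enhancer positions were above expectation in ESCs, near it in WT MNs and near or below it in KO MNs, from few contacts. With the bin 45 kb upstream, the promoter bin made 26 contacts in WT and 21 in KO ESCs, and 9 in WT and 4 in KO MNs (O/E 2.05, 1.79, 1.09 and 0.466). With the bin 60 kb downstream (chr6:122760001-122768000) it made 27, 22, 9 and 8 contacts (O/E 2.42, 2.13, 1.26 and 1.08). Both ESC libraries therefore lay above both MN libraries at both positions. High values were not limited to these bins. In WT ESCs the O/E was 2.47 with the bin 40 kb upstream of the promoter bin and 2.41 with that 72 kb downstream. Over the whole Nanog-Slc2a3 side, at least 24 kb away, it was 1.67 in WT ESCs and 1.25 in WT MNs. In WT ESCs, 1.65% of 18091 chromosome 6 pairs at 48 kb and 0.503% of 18086 pairs at 56 kb had at least as many contacts. These shares were 5.54% and 1.91% in KO ESCs, 46.5% and 35.1% in WT MNs, and 87.8% and 47.4% in KO MNs. The position about 5 kb upstream lies in or beside the promoter bin and cannot be resolved in 8 kb bins.

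For the 2 positions together the MN over ESC log2 ratio was -0.93 (-1.79 to -0.14) in WT and -1.38 (-2.44 to -0.43) in KO cells. Over squares of 3 by 3 bins, which hold 427, 348, 166 and 156 contacts, it was -0.74 (-1.01 to -0.48) and -0.70 (-0.98 to -0.42). The log2 ratio of KO over WT in ESCs was -0.19 (-0.80 to 0.42), and that in MNs was -0.64 (-1.82 to 0.50), and over the squares -0.18 (-0.39 to 0.03) and -0.14 (-0.47 to 0.18). A difference between the genotypes at the enhancer positions of Nanog was therefore not detectable at this depth. The difference between ESC and MN libraries was larger than counting error, and with 1 library in each group, cell state and library cannot be told apart.

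Among the pairs of promoters and enhancer positions, the highest O/E in ESCs belonged to Slc2a3. Its promoter bin (chr6:122736001-122744000) met the bin 45 kb upstream of Nanog, 80 kb away, with 34 contacts in WT and 23 in KO ESCs, and 9 in WT and 8 in KO MNs. The O/E was 4.03, 2.95, 1.73 and 1.48. In the square of 3 by 3 bins around this pair, with 240, 166, 69 and 73 contacts, the log2 ratio of KO over WT in ESCs was -0.42 (-0.72 to -0.13), and that in MNs was 0.03 (-0.46 to 0.53). The single pair had -0.45 (-1.28 to 0.36) and -0.22 (-1.80 to 1.32). In WT ESCs 0.0332% of 18076 pairs of chromosome 6 at this distance had at least as many contacts as the single pair. The share was 0.227% in KO ESCs, 15.0% in WT MNs and 24.9% in KO MNs. The MN over ESC log2 ratio was -1.22 (-2.47 to -0.13) in WT and -0.99 (-2.36 to 0.22) in KO cells.

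With the bin 60 kb downstream of Nanog, which is 24 kb from it, the Slc2a3 promoter bin made 86, 48, 24 and 21 contacts in the same order. The O/E was 3.44 (2.75 to 4.25) in WT and 2.09 in KO ESCs, and 1.44 in WT and 1.21 in KO MNs. In WT ESCs this was exceeded or equalled by 0.0166% of 18116 pairs at that distance. The share was 0.497% in KO ESCs, 16.8% in WT MNs and 33.4% in KO MNs. The log2 ratio of KO over WT in ESCs was -0.71 (-1.26 to -0.19), and that in MNs was -0.25 (-1.16 to 0.66). Of the 10 pairs in the plot of promoter and enhancer contacts, this was the one whose genotype interval in ESCs left out 0. In the square of 3 by 3 bins around it, which includes a pair of adjacent bins, the ESC log2 ratio was -0.20 (-0.39 to -0.02). With coverage corrected, that of the single pair was -0.46. Between the states, MN over ESC, the log2 ratio was -1.26 (-1.98 to -0.59) in WT and -0.79 (-1.60 to -0.02) in KO cells, and in the squares -0.42 and -0.27.

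In ESCs 137 pairs were at least 24 kb apart with a mean of at least 20 contacts. Ranked by mean O/E of both genotypes, the top 5 had one end at the bin 45 kb upstream of Nanog or the next. Their other ends lay in the Slc2a3 gene for 3 of them, in the Nanog gene for 1 and between genes for 1. The first (chr6:122664001-122672000 with chr6:122728001-122736000, in the Slc2a3 gene) had 42 contacts in WT and 33 in KO ESCs, and 9 in WT and 10 in KO MNs, with an O/E of 4.18, 3.56, 1.42 and 1.52. The Nanog pair (with chr6:122712001-122720000) had 41, 34, 15 and 11 contacts, with an O/E of 3.24, 2.91, 1.81 and 1.28. The order differed in KO ESCs alone. There the Slc2a3 promoter bin with chr6:122776001-122784000, a pair with no end at those bins, had 45 contacts and an O/E of 3.26. In MNs 18 pairs reached that mean, none of them at the bin 45 kb upstream, so this list says nothing of its contacts there. At a mean of at least 10 contacts, that bin had 8 MN pairs. The highest were those at 128, 144 and 120 kb, beyond Slc2a3, with a mean O/E of 3.49, 3.06 and 3.04, followed by a bin in Apobec1 on the other side (1.62) and a bin in Nanog (1.44).

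**Figure D3:**
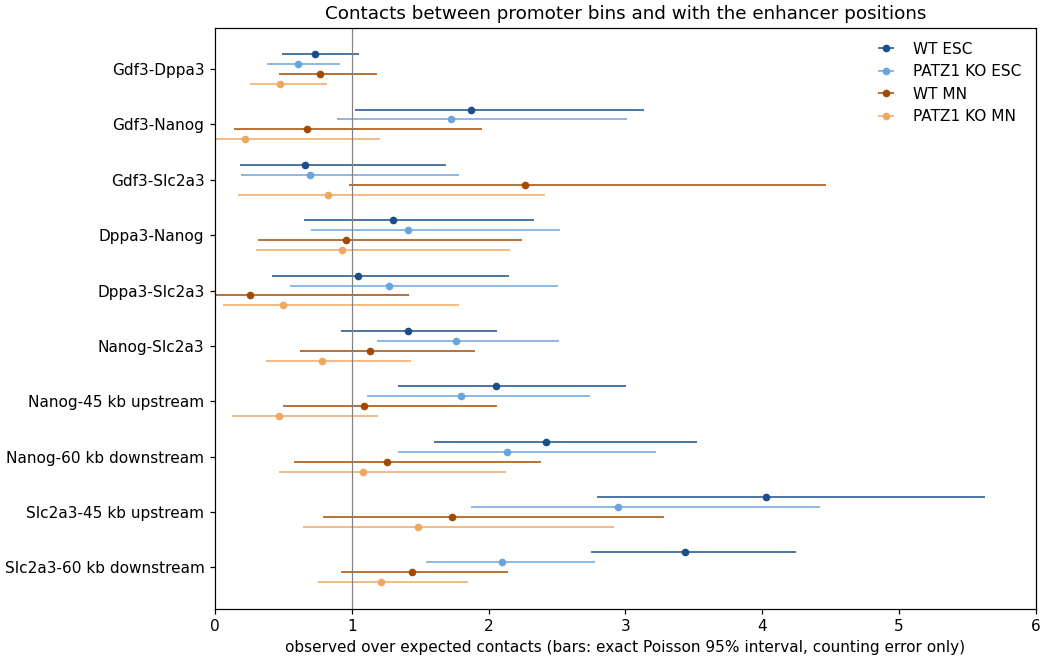
O/E of single pairs of bins for the 6 pairs of gene promoters and for Nanog and Slc2a3 with the 2 enhancer positions, in the 4 libraries. Points are O/E and bars are exact Poisson 95% intervals that cover counting error only. The 2 Slc2a3 pairs reach 4.03 and 3.44 in WT ESCs, whereas most intervals of the gene pairs include 1.

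Contacts between the 4 promoters themselves were few. The Gdf3 and Nanog promoter bins, 96 kb apart, met 14 times in WT and 12 in KO ESCs, and 3 in WT and 1 in KO MNs (O/E 1.87, 1.73, 0.669 and 0.217). The Nanog and Slc2a3 promoter bins, 32 kb apart, met 26, 30, 14 and 10 times (O/E 1.41, 1.76, 1.13 and 0.780). For Gdf3-Nanog the MN over ESC log2 ratio was -1.48 (-3.92 to 0.36) in WT and -2.99 (-8.41 to -0.24) in KO cells, from 3 and 1 contacts in MNs. In squares of 3 by 3 bins these were -0.77 (-1.42 to -0.15) and -0.07 (-0.70 to 0.54), so the KO value did not hold in the wider unit. Nanog-Slc2a3 had MN over ESC log2 ratios of -0.32 (-1.37 to 0.67) in WT and -1.17 (-2.37 to -0.10) in KO cells. Here too the KO value was nearer to 0 in the squares, at -0.28 (-0.60 to 0.04), and over all bins of the genes, at -0.18 (-0.49 to 0.13).

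The Gdf3 and Dppa3 promoter bins, the closest pair at 16 kb, met 29, 22, 20 and 13 times. The O/E was 0.730 (0.489 to 1.05), 0.603 (0.378 to 0.913), 0.766 (0.468 to 1.18) and 0.476 (0.254 to 0.815), so the intervals of both KO libraries lay below 1 and those of both WT libraries included it. The squares of 3 by 3 bins were nearer to 1, at 0.862, 0.936, 0.896 and 0.785. At this distance the square includes the bin between the promoters, with itself and with adjacent bins, so it does not measure the promoter pair alone. Coverage of both bins was low, between 0.704 and 0.888 of the mean of chromosome 6 in the 4 libraries. The Dppa3 and Nanog bins, 80 kb apart, met 11, 11, 5 and 5 times, with an O/E of 1.30, 1.41, 0.960 and 0.925. Slc2a3 met Dppa3 7, 8, 1 and 2 times and Gdf3 4, 4, 8 and 3 times. For these last 2 pairs the counts of the single pairs of bins are too low for any order of the libraries to be read from them. In squares of 3 by 3 bins the MN over ESC log2 ratios were -0.94 (-1.66 to -0.26) in WT and -0.35 (-1.02 to 0.30) in KO cells for Dppa3-Slc2a3. For Gdf3-Slc2a3 they were -0.55 (-1.25 to 0.11) and -0.34 (-1.08 to 0.36), and for Dppa3-Nanog -0.68 (-1.31 to -0.07) and 0.19 (-0.40 to 0.76).

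Over all 6 pairs there were 91 contacts in WT and 87 in KO ESCs, and 51 in WT and 34 in KO MNs, an O/E of 1.05 (0.843 to 1.29), 1.08 (0.868 to 1.34), 0.917 (0.683 to 1.21) and 0.588 (0.407 to 0.822). The log2 ratio of KO over WT in ESCs was 0.05 (-0.39 to 0.49), and that in MNs was -0.64 (-1.31 to 0.01). In squares of 3 by 3 bins the MN value was -0.10 (-0.26 to 0.05), and over all bins of the genes it was -0.10 (-0.37 to 0.16). For MN over ESC it was -0.19 (-0.72 to 0.32) in WT and -0.88 (-1.50 to -0.29) in KO cells. In squares of 3 by 3 bins the last value was -0.22 (-0.36 to -0.08), and over all bins of the genes it was -0.17 (-0.41 to 0.07). The value was thus much nearer to 0 in the wider squares, where its interval still left out 0, than in the promoter bins. The squares do not measure the 6 pairs alone, as the Gdf3-Dppa3 square holds contacts within a bin and between adjacent bins. That square gave 629 of the 1042 contacts in KO ESCs and 387 of the 646 in KO MNs. Over gene bins, Nanog-Slc2a3 gave 224 of 368 and 144 of 234, adjacent bins among them.

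The Nanog and Slc2a3 promoters had a higher O/E with their own side of the upstream bin than with the other. With that side, at distances of at least 24 kb, Slc2a3 had 536 contacts in WT and 439 in KO ESCs, and 239 in WT and 265 in KO MNs (O/E 1.93, 1.70, 1.34 and 1.44), and Nanog had 433, 339, 206 and 201 (O/E 1.67, 1.41, 1.25 and 1.18). With the Gdf3-Dppa3 side the O/E was 1.04, 0.970, 0.923 and 0.751 for Slc2a3 and 1.03, 0.777, 0.759 and 0.692 for Nanog. The own side was the higher one in all 4 libraries. The other side also reached to greater distances, which were not matched between the sides. The MN over ESC log2 ratio on their own side was -0.52 (-0.74 to -0.30) for Slc2a3 and -0.41 (-0.66 to -0.17) for Nanog in WT cells, and -0.24 (-0.47 to -0.02) and -0.25 (-0.51 to 0.00115) in KO cells.

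For Gdf3 and Dppa3 the values with both sides lay close together in ESCs. Gdf3 made contacts with the Nanog-Slc2a3 side at an O/E of 1.16, 0.933, 0.938 and 0.932 and with its own side at 1.06, 0.995, 0.966 and 0.627, in WT ESCs, KO ESCs, WT MNs and KO MNs. For Dppa3 these were 1.13, 0.939, 0.862 and 0.941 with the Nanog-Slc2a3 side and 1.20, 0.995, 1.00 and 0.697 with its own. In KO MNs the own-side values of both genes were the lowest of the 4 libraries. The KO over WT log2 ratio there was -0.62 (-0.99 to -0.26) for Gdf3, from 158 and 106 contacts, and -0.52 (-0.90 to -0.15) for Dppa3, from 146 and 105. Coverage of the 2 promoter bins also moved with it, from 0.832 to 0.704 for Gdf3 and from 0.888 to 0.764 for Dppa3, and its part in the result was not tested.

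Among partners at least 24 kb away with a mean of at least 10 contacts, the highest O/E of the Nanog promoter in ESCs, as the mean of both genotypes, was with the bin 60 kb downstream (2.28). The libraries differed in this order: WT ESCs were highest at the bin 40 kb upstream of the promoter bin (2.47) and KO ESCs at the bin 88 kb downstream of it (2.58). Next by the mean came the bin 72 kb away (chr6:122776001-122784000), with 22, 18, 7 and 13 contacts in WT ESCs, KO ESCs, WT MNs and KO MNs. That bin was also first for Nanog in MNs by the mean, through the KO library, with an O/E of 1.22 in WT and 2.19 in KO cells. In WT MNs the bins 40 kb to either side were higher, at 1.52 each. The first partner of Slc2a3 in MNs by the mean was the bin 64 kb away on the side opposite Nanog (chr6:122800001-122808000), with 16, 20, 18 and 17 contacts and an O/E of 1.59, 2.16, 2.84 and 2.58. This contact had a higher O/E in MNs than in ESCs in both genotypes, from few contacts. It was picked as the highest of 11 partners by its MN values, which favours that direction, so no difference between the states is read from it.

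The insulation score measures contacts that pass over a bin, as the log2 of the mean count in a square of 10 bins (80 kb) over the mean of chromosome 6, so a low score marks an edge. At Nanog the score was 0.85 in WT and 0.63 in KO ESCs, and 0.34 in WT and 0.37 in KO MNs. At the bin 45 kb upstream it was 0.13, -0.08, -0.30 and -0.23. Contacts passing over this bin were thus fewer than those passing over Nanog in each library, but the dip in ESCs did not reach the limit of -0.2 used to name an edge.

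By that limit, 1 edge was found in each state. In ESCs it was in Necap1 (chr6:122880001-122888000), at the end of the stretch beyond Slc2a3, where WT cells scored -0.51 and KO cells -0.75. The mean of both genotypes named it, and in WT ESCs alone the score went on falling to the last bin, at -0.53. In MNs the bin was at -0.94 and -1.09, and the score went on falling to the last bin, so that no minimum was named inside the stretch. In MNs the edge lay just downstream of Dppa3 (chr6:122632001-122640000), with -0.19 in WT and -0.49 in KO cells, against 0.12 and -0.14 in ESCs. The mean of both genotypes named it, and in WT MNs alone the lowest score between Dppa3 and Nanog was 16 kb farther on (chr6:122648001-122656000), at -0.32. In KO MNs alone the score was lower on the other side of Dppa3, at -0.51 in the Gdf3 promoter bin (chr6:122608001-122616000). The named bin was thus the lowest in neither MN library alone. The KO minus WT change was -0.24 (-0.41 to -0.07) at the ESC edge, where 3.47% of 18126 bins had a lower change, and -0.30 (-0.49 to -0.11) at the MN edge, where 17.9% of 18120 bins did. These changes hold for the named bins: at the lowest bin of WT MNs between Dppa3 and Nanog, KO MNs were higher, at -0.24 against -0.32, and at the last bin of the stretch KO ESCs scored -0.59 against -0.53 in WT ESCs.

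**Figure D4:**
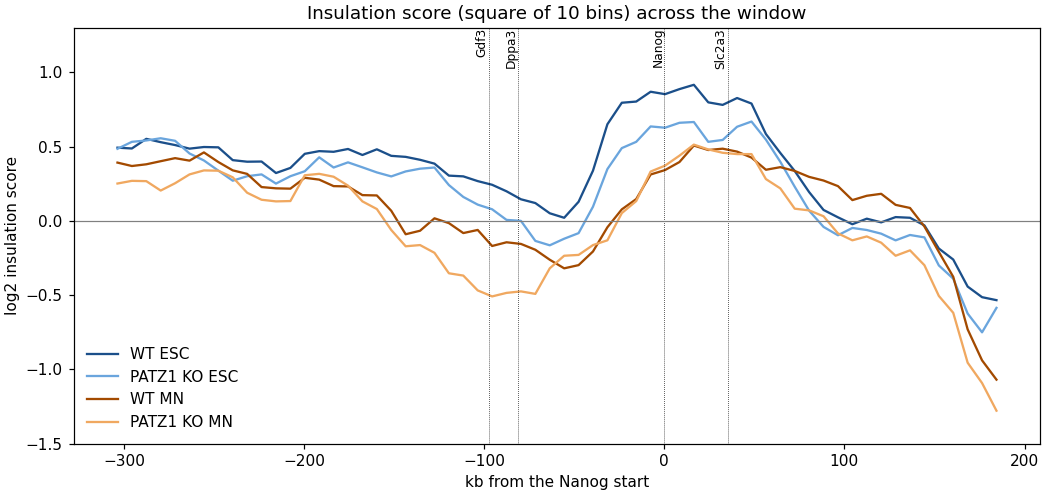
Insulation score (log2, square of 10 bins) along the stretch in the 4 libraries, against the distance from the Nanog start in kb. Dotted lines mark the 4 gene starts. All 4 lines are low upstream of Nanog, peak over Nanog and Slc2a3 and are low at the right end. The MN lines lie below the ESC lines from Gdf3 to Nanog.

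By distance, the 2 comparisons had different shapes within the stretch. KO over WT in ESCs was above 0 for contacts within a bin, from 21264 contacts in WT and 21333 in KO cells, with a log2 ratio of 0.07 (0.05 to 0.10). It was below 0 from 16 to 392 kb, with -0.13 (-0.18 to -0.08) at 40 to 96 kb and -0.14 (-0.21 to -0.07) at 104 to 192 kb, and 0.07 (-0.35 to 0.48) at 400 to 488 kb. Without pairs in the same or adjacent bins, the log2 ratio of the stretch was -0.12 (-0.15 to -0.09), which stood at percentile 10.1 of the 4842 windows. In MNs the ratio was below 0 in all 7 distance classes, from -0.19 (-0.25 to -0.12) at 16 to 32 kb to -0.09 (-0.58 to 0.41) at 400 to 488 kb.

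In WT cells MN over ESC was lowest at 40 to 96 kb. In KO cells contacts within a bin were lower still, at -0.28 (-0.31 to -0.25). At 40 to 96 kb the stretch had 6141 contacts in WT and 5196 in KO ESCs, and 3194 in WT and 3098 in KO MNs. The O/E was 1.39, 1.27, 1.14 and 1.07, and the log2 ratio was -0.29 (-0.35 to -0.23) in WT and -0.25 (-0.32 to -0.19) in KO cells. At 200 to 392 kb the direction was opposite, with 0.18 (0.08 to 0.29) and 0.19 (0.08 to 0.30), from an O/E of 0.892, 0.821, 1.01 and 0.938. At 200 to 392 kb the O/E was thus higher in MNs than in ESCs of the same genotype. At 400 to 488 kb the intervals included 0, with 0.27 (-0.19 to 0.72) in WT and 0.12 (-0.35 to 0.57) in KO cells.

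**Figure D5:**
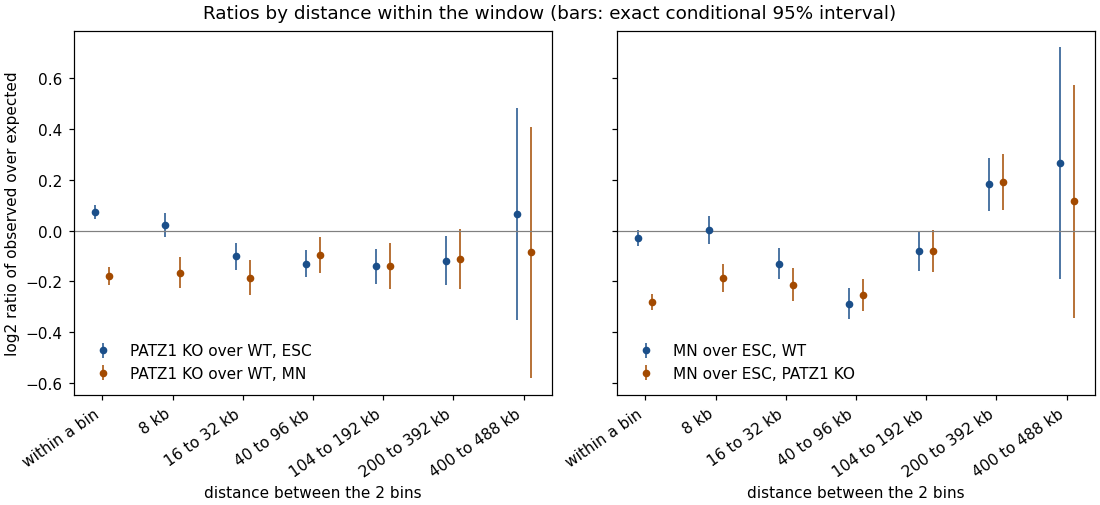
Log2 ratio of O/E for 7 classes of distance between the 2 bins of a pair, for KO over WT (left) and MN over ESC (right). Bars are exact conditional 95% intervals. In the right panel both genotypes are below 0 at 40 to 96 kb (-0.29 in WT and -0.25 in KO cells) and above 0 at 200 to 392 kb (0.18 and 0.19).

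Single pairs were then counted that had a mean of at least 10 contacts and an O/E ratio past 2-fold. For KO over WT in ESCs, 682 pairs of the stretch qualified, of which 7 (1.03%) were higher and 30 (4.40%) lower. Of all pairs of the genome at the same distances, 2.82% were higher and 3.08% lower. In MNs, 5 of 390 pairs (1.28%) were higher and 21 (5.38%) lower, against 3.89% and 3.83% of the genome. With counts corrected for bin coverage the MN shares turned, to 14 higher (3.59%, against 2.26% of the genome) and 8 lower (2.05%, against 2.22%). With a mean of at least 20 contacts, 0 of 320 pairs in ESCs were higher and 2 lower (0.625%, against 0.582% of the genome), and 1 of 192 pairs in MNs was higher and 2 lower (1.04%, against 1.19%). At that minimum the lower shares were thus close to the background. Of the genome pairs, 0.480% were higher in ESCs and 1.38% in MNs.

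For MN over ESC in WT cells, 8 of 568 pairs (1.41%) were higher and 47 (8.27%) lower, against 3.94% and 4.72% of the genome. In KO cells 14 of 500 pairs (2.80%) were higher and 53 (10.6%) lower, against 2.94% and 3.48%. Without correction for coverage, lower pairs were therefore more frequent in the stretch than in the genome in both genotypes. With counts corrected for bin coverage the lower pairs were 31 (5.46%, against 3.72% of the genome) in WT and 17 (3.40%, against 3.18%) in KO cells. The higher pairs were then 18 (3.17%, against 3.03%) and 36 (7.20%, against 2.76%), so that in KO cells the direction turned. Of the 47 lower pairs in WT cells, 24 of 273 qualifying pairs lay on the Nanog-Slc2a3 side, 19 of 266 on the Gdf3-Dppa3 side and 4 of 29 between them. In KO cells these were 23 of 232, 26 of 242 and 4 of 26.

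To set the 4 genes beside others, the contacts of each promoter bin with bins 16 to 200 kb away on both sides were summed for all protein-coding genes. Slc2a3 had 727 such contacts in WT and 614 in KO ESCs, and 343 in WT and 359 in KO MNs (O/E 1.53, 1.40, 1.16 and 1.17), and Nanog 694, 529, 329 and 322 (O/E 1.46, 1.20, 1.11 and 1.05). Dppa3 had 538, 404, 273 and 223 (O/E 1.13, 0.918, 0.920 and 0.726) and Gdf3 510, 425, 272 and 210 (O/E 1.08, 0.966, 0.917 and 0.684). All 4 genes had their highest level in WT ESCs. The order of the genes was Slc2a3, Nanog, Dppa3 and Gdf3 in each MN library and in WT ESCs, and Gdf3 was above Dppa3 in KO ESCs. Gdf3 and Dppa3 did not differ beyond their counting error in any library, and Slc2a3 and Nanog did so in KO ESCs alone.

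The MN over ESC log2 ratio in WT cells was -0.41 (-0.60 to -0.22) for Slc2a3, -0.40 (-0.59 to -0.21) for Nanog, -0.30 (-0.52 to -0.09) for Dppa3 and -0.23 (-0.45 to -0.02) for Gdf3. The median of 18870 genes was 0.16, and the 4 genes stood between percentiles 7.89 and 15.1. In KO cells the ratios were -0.26 (-0.45 to -0.07), -0.20 (-0.40 to 0.01), -0.34 (-0.58 to -0.10) and -0.50 (-0.74 to -0.26), with a median of 0.03 over all genes. For KO over WT in ESCs they were -0.14 (-0.29 to 0.02), -0.28 (-0.45 to -0.12), -0.30 (-0.49 to -0.12) and -0.15 (-0.34 to 0.03), against a median of -0.06. In MNs they were 0.02 (-0.20 to 0.23), -0.08 (-0.31 to 0.15), -0.34 (-0.60 to -0.08) and -0.42 (-0.69 to -0.16), against a median of -0.19. In MNs the interval of each of the 4 genes included the median of all genes.

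No member passed 1.5-fold in any of these comparisons. Over all genes, 0.164% were higher and 1.07% lower for KO over WT in ESCs, 1.64% and 5.2% in MNs, 7.41% and 3.67% for MN over ESC in WT cells, and 1.81% and 1.18% in KO cells. Among 18870 genes, 6144 had a MN over ESC log2 ratio below 0 in WT cells. Of the 11 genes that start in the stretch, 10 did, with a median of -0.25. Among those that are not members, Necap1, an endocytosis factor, had -0.10. Foxj2, a forkhead transcription factor, had 0.18 and was the one gene above 0. In KO cells these were -0.06 and -0.16. All 11 genes of the stretch were below 0 there, with a median of -0.20, against 8611 of 18805 genes. In both genotypes these genes are neighbours whose sums reach many of the same bins, so they do not count as separate observations.

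Other pluripotency genes were counted in the same way. Of a list of 25 such genes, Nanog, Dppa3 and Gdf3 included, 24 could be compared between MNs and ESCs in WT cells, with a median log2 ratio of 0.09 against 0.16 over all genes. Of these, 2 were lower by at least 1.5-fold, Sox2 (-0.73) and Klf4 (-0.68), both core factors of the pluripotent state, and 1 was higher, Fgf4 (0.59), a growth factor. Of all genes, 3.67% were lower and 7.41% higher. Sox2, Klf4 and Fgf4 are named here because their values passed the fold. In KO cells none of 24 passed it, and the median was -0.12 against 0.03. For KO over WT none of 25 passed it in ESCs (median -0.16 against -0.06). In MNs 2 of 24 were lower, against 5.2% of all genes. These were Lefty1 (-0.66) and Fgf4 (-0.67), and the median was -0.30 against -0.19. Neither gene passed it over 16 to 400 kb or with coverage corrected. The MN over ESC counts in WT cells also changed with these settings. Of a list of 18 motor neuron genes none passed the fold in any comparison, with medians for MN over ESC of 0.15 in WT and -0.03 in KO cells. A pair of these genes had the same promoter contacts, so the same value entered each median for both.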

How the data were processed

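The Micro-C kit came from Dovetail, which also mapped the reads, built the matrices and ran HiCcompare for the authors. The submitters' processing notes name mm10; the aligner is not given in the sources used here. No listed bin ran past the end of its chromosome in GRCm38.p6, whose RefSeq annotation was used. The authors deposited, for each cell state, a list of pairs of 8 kb bins with whole-number contact counts and an adjusted signal after joint normalization of both libraries against distance. Only pairs seen in both libraries of a state are listed, so unlisted pairs were counted as 0. The deposited log2 ratios, scores and p-values of the authors' comparison were not used.

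Expected counts were means over all pairs of covered bins of the chromosome at the same distance. Intervals of O/E are exact Poisson, those of ratios exact conditional binomial (Clopper-Pearson), at 95%, and take expected counts as known. The lists of the states were made separately, so states were compared by O/E and by insulation scores, which are relative to the mean of the chromosome in each library, with library-total scaling as an alternative. In MN over ESC comparisons of single pairs, a pair had to be listed in both states. A promoter was the bin with the start of the RefSeq Select transcript (20886 genes). Promoter sums needed at least 100 contacts in each library. Genes named were the 4 members, the other genes starting in the stretch, and listed genes past the fold in both genotypes, of which there were none; genes past it in one are named as such. One gene of the stretch is not reported here. The members and gene lists were chosen with earlier results of these data known. Functions were tested on simulated counts. Python 3.11.15, numpy 2.4.6, scipy 1.17.1 and pandas 2.3.3 were used. Alternatives were library-total scaling, the adjusted signal, coverage correction, genome-wide expected counts, other squares, distances, minimum counts and folds, and thinning.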

Additional observations from a re-analysis of the deposited data

How the results depend on the processing

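No paired analysis was possible because each group had 1 library. The number of contacts limits every value for a single pair of bins, and no spread between libraries of a group could be had. With counts corrected for bin coverage, the log2 ratio of all contacts of the stretch was 0.061 for PATZ1 KO over WT in ESCs and changed sign in MNs (0.10) and for MN over ESC in WT (0.10) and PATZ1 KO cells (0.14). The sums of both sides and of the mixed pairs in MNs changed sign too, to 0.083, 0.11 and 0.16 for PATZ1 KO over WT, as did MN over ESC on the Nanog-Slc2a3 side in WT (0.065) and on both sides in PATZ1 KO cells (0.19 and 0.15), and on the mixed pairs in WT (0.11) and PATZ1 KO cells (0.28). Scaled by library total, the whole stretch was at -0.12 for PATZ1 KO over WT in MNs, and at -0.13 in WT and -0.25 in PATZ1 KO cells for MN over ESC. Without pairs within 1 bin the log2 ratios were -0.12 in ESCs and -0.14 in MNs for PATZ1 KO over WT, and -0.13 in WT and -0.15 in PATZ1 KO cells for MN over ESC. For the 6 gene pairs in PATZ1 KO cells, MN over ESC was -0.22 in squares of 3 by 3 bins and -0.17 over gene bins. Coverage of a bin includes its contacts within the stretch, and each count was divided by the coverage of both its bins. Corrected values can thus take out more than a change there and do not decide its direction. The cause of these changes was not tested.

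Counts of pairs past the fold, higher and lower, moved most. For PATZ1 KO over WT in ESCs they were 46 and 103 at a mean of at least 5 contacts, 0 and 2 at 20, and 42 and 111 (6.16% and 16.3%, against 10.2% and 10.5% of the genome) at a fold of 1.5. With coverage corrected they were 10 and 21 (3.08% lower, against 2.66%). At a mean of at least 5 the lower pairs were 8.82% of 1168, against 9.57% of the genome, so that the excess of lower pairs was not seen there. The higher pairs were 3.94%, against 8.02%, so higher pairs were still fewer than in the genome. In MNs the counts were 44 and 80 (5.45% higher and 9.90% lower of 808, against 9.33% and 9.58%), 1 and 2, and 23 and 67 (17.2% lower, against 12.7%), and 14 and 8 with coverage corrected. For MN over ESC in WT cells they were 56 and 127 (12.3% of 1034 lower, against 10.7%), 1 and 13 (4.85% lower, against 1.68%), 45 and 120 (21.1% lower, against 13.7%), and 18 and 31. In PATZ1 KO cells they were 57 and 133 (13.7% of 972 lower, against 9.31%), 1 and 11 (4.64% lower, against 0.711%), 42 and 118 (23.6% lower, against 10.9%), and 36 and 17. The number of pluripotency promoters past 1.5-fold was 0 lower for PATZ1 KO over WT in MNs both over 16 to 400 kb and with coverage corrected. For MN over ESC in WT cells it was 3 higher and 1 lower over 16 to 400 kb, and 0 higher and 2 lower with coverage corrected, and in PATZ1 KO cells it was 1 lower over 16 to 400 kb. The share of all genes was not computed at these settings. Splitting the stretch and the row was chosen after seeing the data, as were the alternatives run on them. The insulation changes and the ratios at the enhancer positions of Nanog stayed within their counting intervals under every alternative run on them, although with coverage corrected KO over WT changed sign in ESCs for both positions together (0.12) and in MNs for the downstream position (0.063).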
